A study of Rattus norvegicus with 4 samples.

Results

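The genes described here make cholesterol and fatty acids, or control that synthesis. They were taken by name from a list of 32 genes, using every probe set (the group of short probes that reads one transcript) that the platform annotation assigns to exactly 1 gene symbol. Of the 32 genes, 31 had such a probe set, 51 probe sets in all, against 14217 genes over the whole array. Hmgcs1, which makes HMG-CoA from acetyl-CoA, had none and has no value here. The 31 genes fall into 16 sterol enzymes, 9 fatty acid enzymes and 6 regulators and transport proteins.

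Smooth muscle cells from the aorta of Sprague-Dawley rats were cultured for 5 days with 10% serum and for 3 days without it. Afterwards 2 samples received vehicle (0.1% BSA) and 2 samples received IL-1b, an inflammatory cytokine, at 2.5 ng/mL, both for 24 hours. Each sample was read on 1 array. The labels do not say how many rats gave cells or whether the samples of a group were separate cultures, so p-values measure the spread between these samples only, which may be technical.

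Cells make cholesterol from acetyl-CoA by way of mevalonate and squalene, and they make saturated fatty acids from the same acetyl-CoA. Elongases and desaturases then lengthen fatty acids and add double bonds. Many of these genes are switched on by SREBP transcription factors, which Scap carries to the Golgi for activation when sterols in the endoplasmic reticulum are low and which Insig proteins hold back when sterols are high. SREBP-2, from Srebf2, acts mainly on sterol genes and SREBP-1, from Srebf1, mainly on fatty acid genes. In smooth muscle cells of the artery wall these pathways supply membrane lipid and the precursors of lipid mediators.

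Values below are intensities in arbitrary linear units, scaled by the authors' processing. Vehicle replicates are named before IL-1b replicates, and a mean is followed by its SD (n = 2). Fold changes are on the log2(intensity + 5.49) scale, where the offset makes the change of a dim gene look smaller than it was. A gene was called higher or lower when its adjusted p in limma, corrected over all 18625 probe sets tested, was under 0.05. Of these probe sets 13.4% were called in either direction. Each gene is represented by its brightest probe set unless another is named, and all 31 genes passed the filter on dim probe sets with at least 1 of them (48 of 51 probe sets passed).

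The array of IL-1b replicate 1 differed from the rest. Control transcripts added in fixed amounts read 3.50 times their vehicle mean on it, against 0.952 times on IL-1b replicate 2, and its background was 76.7 against 18.8 to 29.4 on the other 3 arrays. All 6 smooth muscle markers measured were above background on every array. All 6 were also lower with IL-1b, and their summed intensity was 30694 and 31470 with vehicle against 11569 and 8662 with IL-1b. Of 14 measured markers of endothelium, leukocytes, adipocytes and hepatocytes, 7 were below background on every array and 1 (Ttr) was above it on every array. Only Tek and Ttr of these 14 were bright enough to be tested, and limma called neither. The intensities of the 14 markers summed to 206 and 227 with vehicle and to 559 and 191 with IL-1b, and no marker was listed at exactly 0. The part of the lower smooth muscle markers in the results below was not tested. In such bulk samples, fewer cells of a type and less RNA per cell cannot be told apart.

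With IL-1b, the desaturases Fads1 and Fads2, the elongase Elovl6 and the acetate-activating enzyme Acss2 fell, as did Elovl5 at its brightest probe set but not at its other one. The desaturase Scd was not called, with a log2 fold change above 0. Of the 16 enzymes of cholesterol synthesis, 14 were not called at their brightest probe set, though Cyp51 and Sc5d were called lower at another. Of the 31 genes, 7 were called lower and none higher. Over all 10000 genes tested, 8.13% were called lower and 7.19% higher, so 53.1% of the calls were lower, and 64.6% with median centring of the arrays, which moved the median log2 fold change of all genes from -0.01 to -0.21. At an unadjusted p under 0.05, limma gave 8 of the 31 genes lower and 2 higher (Lss and Scd), against 15.9% and 14.0% of all genes. The 7 genes called were Fads1, Fads2, Elovl5, Elovl6 and Acss2 among the 9 fatty acid enzymes, and Pmvk and Idi1 among the 16 sterol enzymes. Without vehicle replicate 1 or without vehicle replicate 2, only Fads1 and Acss2 of the 31 were called lower, against 4.45% and 3.99% of all genes. Without IL-1b replicate 2, 11 of the 31 were lower and 3 higher, against 27.1% and 22.8% of all genes. Without IL-1b replicate 1, 10 were lower and 2 higher, against 17.7% and 15.2% of all genes. When the variance prior had no intensity trend, only Fads1 was called, and 2.79% of all genes were lower.

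**Figure D1:**
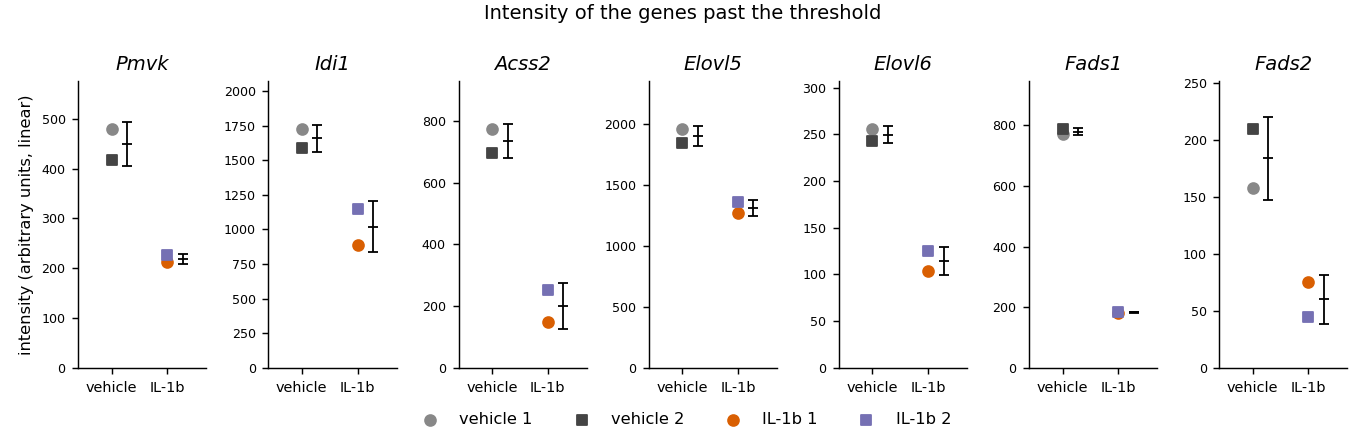
Intensity on each array, in arbitrary linear units on axes that start at 0, of the 7 genes called lower with IL-1b; circles are replicate 1, squares are replicate 2, and the bars are the mean and SD (n = 2). In every panel both IL-1b arrays lie below both vehicle arrays, and the IL-1b values of Fads1, 182 and 184, are the closest together.

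Fads1 and Fads2 encode desaturases that add double bonds on the route from dietary polyunsaturated fatty acids to arachidonic acid, the precursor of prostaglandins. Fads1 read 771 and 788 with vehicle and 182 and 184 with IL-1b. The groups were far apart and the replicates nearly equal. It fell 4.16-fold, from 779.5 ± 12.6 to 183 ± 1.47, a log2 fold change of -2.06 ± 0.17 (SE, adjusted p = 3.9e-04 in limma). Among the 10000 genes tested, 196 had a lower log2 fold change than Fads1. Its call held under all 14 alternative settings tried, with log2 fold changes from -2.26 to -1.98.

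Fads2 carries out the first desaturation of that route. It read 158 and 210.1 with vehicle and 75.6 and 45.0 with IL-1b, so the groups did not overlap. On IL-1b replicate 1 it was below the background of 76.7, so 1 of its 2 IL-1b values was above background. It fell by 1.55 ± 0.38 on the log2 scale (SE, adjusted p = 0.040), a size that rests in part on the value below background. Without IL-1b replicate 1, the array of that value, the log2 fold change was -1.90, and without IL-1b replicate 2 it was -1.21. The call was lost without vehicle replicate 1 or 2 (adjusted p = 0.14 and 0.42). In the RefSeq annotation Fads3, Fads2 and Fads1 are next to each other on the chromosome. Fads3, a related desaturase that is not among the 31 genes and was singled out after its values were seen, had a log2 fold change of -0.11 (adjusted p = 0.67) and was not called, and its difference from Fads1 and Fads2 was not tested.

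The elongases lengthen fatty acids, Elovl6 acting on saturated and monounsaturated chains and Elovl5 on polyunsaturated ones. Elovl6 read 256 and 243 with vehicle and 104 and 125 with IL-1b. It fell 2.14-fold (log2 fold change -1.09 ± 0.25 SE, adjusted p = 0.030), and its other probe set, 200.1 and 165 with vehicle against 122 and 78.3 with IL-1b, was lower on both IL-1b arrays but not called (adjusted p = 0.14). Without vehicle replicate 1 or 2 its adjusted p was 0.28 and 0.25.

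The probe sets of Elovl5 went in opposite directions. The brightest, 1388348_at, read 1964 and 1847 with vehicle and 1269 and 1359.7 with IL-1b, and it fell by 0.53 ± 0.14 on the log2 scale (SE, adjusted p = 0.049). The other, 1387630_at, read 309 and 188 with vehicle and 554 and 436 with IL-1b, a log2 fold change of 1.01 ± 0.27 that was not called (adjusted p = 0.053). In both probe sets the groups did not overlap. With the mean of its probe sets Elovl5 had a log2 fold change of 0.24 (adjusted p = 0.42), so the direction for this gene depends on the probe set.

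Scd, stearoyl-CoA desaturase, which puts the first double bond into saturated fatty acids, was the 1 modifying enzyme of the fatty acid arm with a log2 fold change above 0. It read 59.0 and 35.2 with vehicle and 105 and 114 with IL-1b. The groups did not overlap, but the log2 fold change of 1.17 had a 95% interval from 0.11 to 2.22 and was not called (adjusted p = 0.15). Its near relative Scd2 is not among the 31 genes and was likewise singled out after its values were seen. Scd2 had a log2 fold change of 0.24 at its brightest probe set (not called) and of 1.26 at 1386889_at (adjusted p = 0.0019 in limma), from 477 ± 35.1 to 1149 ± 13.9. Its other probe sets, 1388253_at and 1398016_at, had 0.36 and -0.32 (adjusted p = 0.64 and 0.76). In both the groups overlapped and neither was called. Scd and Scd2 are close copies, so probes of one may read the other.

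The enzymes that build the carbon chain were mostly not called. Acss2, which makes acetyl-CoA from acetate in the cytosol and nucleus, was the exception. It read 774 and 697 with vehicle and 148 and 253 with IL-1b, and both IL-1b arrays were far below the vehicle arrays. It fell 3.71-fold, from 735.5 ± 55.1 to 201 ± 74.0 (log2 fold change -1.89 ± 0.26 SE, adjusted p = 0.0043), and the call was lost when the prior had no intensity trend (adjusted p = 0.057). Without IL-1b replicate 1 its log2 fold change was -1.52 and without IL-1b replicate 2 it was -2.27.

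Acly, which makes acetyl-CoA from citrate, read 1069 and 1110.3 with vehicle and 980.2 and 1176 with IL-1b. These ranges overlapped, and the log2 fold change of -0.02 had a 95% interval from -0.38 to 0.34. Acaca, acetyl-CoA carboxylase, which commits acetyl-CoA to fatty acids, had 584 ± 8.53 with vehicle and 728 ± 26.6 with IL-1b (log2 fold change 0.32, 95% interval -0.03 to 0.66, adjusted p = 0.22). Fasn, the fatty acid synthase, had 1186 ± 185 with vehicle and 916 ± 19.9 with IL-1b (log2 fold change -0.36, 95% interval -0.74 to 0.02, adjusted p = 0.20).

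At the brightest probe sets, the only called sterol enzymes were in the early pathway. Later in the pathway, Cyp51 and Sc5d each had another probe set that was called lower. Pmvk, phosphomevalonate kinase, read 479.6 and 417 with vehicle and 212 and 226 with IL-1b, and it fell 2.02-fold (log2 fold change -1.01 ± 0.19 SE, adjusted p = 0.013). Idi1, which isomerises the isoprene unit from which sterols and prenyl groups are built, read 1727 and 1589 with vehicle and 888 and 1149 with IL-1b, falling 1.64-fold (log2 fold change -0.71 ± 0.17 SE, adjusted p = 0.037). Its other probe set was also called, at -1.02 (adjusted p = 0.049). In both genes the groups did not overlap. Without vehicle replicate 1 or 2 neither gene was called (adjusted p from 0.074 to 0.29), and with median centring of the arrays neither was called (adjusted p = 0.060 for Pmvk and 0.17 for Idi1).

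The other 4 measured enzymes before squalene were not called. Mvk, mevalonate kinase, had 179 ± 0.214 with vehicle and 210 ± 57.8 with IL-1b (log2 fold change 0.20, adjusted p = 0.67). Mvd, which makes isopentenyl pyrophosphate from the product of Pmvk, had a log2 fold change of 0.22 (95% interval -0.41 to 0.84). Fdps, which makes farnesyl pyrophosphate, read 2541 and 2458 with vehicle and 2543 and 2316 with IL-1b, and its log2 fold change of -0.04 had a 95% interval from -0.38 to 0.30. Fdft1, squalene synthase, read 597 and 690.5 with vehicle and 545 and 516 with IL-1b (log2 fold change -0.27, adjusted p = 0.32).

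None of the 10 enzymes from squalene to cholesterol was called at its brightest probe set in limma. At an unadjusted p under 0.05, 1 was lower (Cyp51) and 1 higher (Lss), no larger a share than the 15.9% and 14.0% of all genes. Their log2 fold changes ran from -0.45 for Cyp51, which demethylates lanosterol, to 0.62 for Lss, which closes the sterol ring. For 8 of the 10 the whole 95% interval lay within a 2-fold change either way, the exceptions being Tm7sf2, a sterol reductase (lower bound -1.07), and Lss (upper bound 1.01). Lss read 313 and 336 with vehicle and 479 and 522 with IL-1b (adjusted p = 0.056), and its other probe set had a log2 fold change of 0.61 (adjusted p = 0.32). Lss was called higher with quantile normalization (adjusted p = 0.0497). Leaving out any 1 of the arrays kept its log2 fold change between 0.55 and 0.68. Those fits cannot decide whether Lss was higher, because a group with 1 array shows no spread of its own.

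Cyp51 read 1935 and 1822 with vehicle and 1526 and 1241 with IL-1b at the brightest probe set (adjusted p = 0.12). Its other probe set, 1387020_at, was called lower, from 914 ± 11.0 to 595 ± 39.8 (log2 fold change -0.62 ± 0.15 SE, adjusted p = 0.035). Sc5d, a sterol desaturase, was split in the same way. Its brightest probe set had a log2 fold change of -0.36 (adjusted p = 0.21), 1389111_at had -0.19 (0.68), and 1390777_at was called lower at -0.85 ± 0.17 (0.021), from 665 ± 87.0 to 365 ± 31.1. Counting any probe set, 9 of the 31 genes had at least 1 called lower and none had 1 called higher, against 8.64% and 8.31% of all genes.

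The other late enzymes had small differences. Sqle, squalene epoxidase, read 825 and 730.6 with vehicle and 633 and 730.3 with IL-1b (log2 fold change -0.19). Msmo1, which oxidises sterol methyl groups, had a log2 fold change of -0.14, and Nsdhl, which removes them, had -0.29. The reductases Hsd17b7, Dhcr7 and Tm7sf2 had 0.05, -0.25 and -0.41. Ebp, a sterol isomerase, had 0.24. The adjusted p of these 7 enzymes ran from 0.31 to 0.92.

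**Figure D2:**
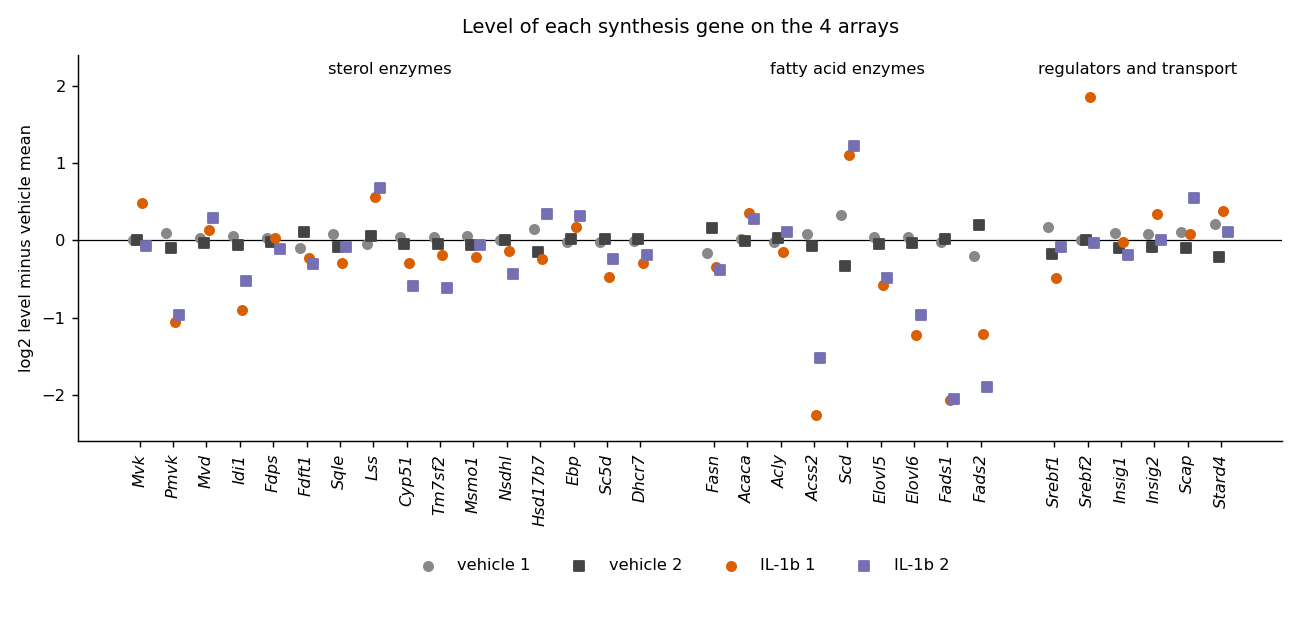
Level of each of the 31 genes on each array, as log2(intensity + 5.49) minus the mean of the vehicle arrays, in pathway order within the sterol enzymes, the fatty acid enzymes and the regulators. Both IL-1b arrays lie close to -2.06 for Fads1, whereas Srebf2 is at 1.85 on IL-1b replicate 1 and at -0.03 on IL-1b replicate 2.

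The regulators were not called in either direction. Limma called 0 of 6 lower or higher, against 8.13% and 7.19% of all genes. At an unadjusted p under 0.05, 0 of 6 passed, against 15.9% of all genes lower and 14.0% higher. With 6 genes these counts are too small to set the regulators apart from all genes. Srebf2 read 408 and 409 with vehicle but 1487 and 399 with IL-1b. The high value was on the array with the high background and control transcripts. The log2 fold change of 0.91 (adjusted p = 0.32) became -0.03 when IL-1b replicate 1 was left out and 1.85 when replicate 2 was. Another probe set of Srebf2, too dim to be tested, read 24.4 and 4.16 with vehicle and 115 and 3.86 with IL-1b. It too was highest on IL-1b replicate 1, and the cause of the high values was not tested. Srebf1 read 440.2 and 346 with vehicle and 277 and 368 with IL-1b at its brightest probe set, a log2 fold change of -0.29. Its other probe set read 279.9 and 202 with vehicle and 453 and 258 with IL-1b, a log2 fold change of 0.51. In both the groups overlapped and neither was called.

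Insig1, itself a target of SREBP, read 617 and 539 with vehicle and 566 and 506 with IL-1b. The groups overlapped, and the log2 fold change of -0.11 had a 95% interval from -0.49 to 0.28. Insig2 read 234 and 208 with vehicle and 281 and 221 with IL-1b (log2 fold change 0.17, 95% interval -0.36 to 0.70). Scap read 526 and 456 with vehicle and 517 and 722 with IL-1b (log2 fold change 0.31, adjusted p = 0.37), and its other, dimmer probe set had 1.04 (adjusted p = 0.16). Stard4 moves sterol between membranes. At its brightest probe set it read 97.1 and 71.2 with vehicle and 110 and 89.7 with IL-1b (log2 fold change 0.24), and at another 121 and 75.6 with vehicle and 61.9 and 51.9 with IL-1b (-0.70), neither called.

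At the brightest probe sets, 2 of 16 sterol enzymes (12.5%) were called lower, near the 8.13% of all genes. That count leaves out Cyp51 and Sc5d, each called lower at another probe set. Over all genes, 8.64% had any probe set called lower. Of the fatty acid enzymes 5 of 9 were called lower at the brightest probe sets, 1 of them Elovl5, whose probe sets oppose each other. Other probe sets added no further fatty acid enzyme. The median log2 fold change was -0.22 for the sterol enzymes, -0.53 for the fatty acid enzymes and 0.21 for the regulators, and -0.01 over all genes tested. Within 0.5 of no change on the log2 scale lay 13 of 16 sterol enzymes and 3 of 9 fatty acid enzymes, against 60.5% of all genes. The sterol median lay above the fatty acid median by 0.36 on IL-1b replicate 1 and by 0.33 on IL-1b replicate 2, relative to the vehicle mean. These are descriptions without a test, since the genes were chosen and 2 arrays against 2 cannot give an exact two-sided permutation p under 0.05. With the mean of each gene's probe sets in place of the brightest, the difference of the arm medians of 0.32 became 0.08, and the fatty acid median became -0.28. Without vehicle replicate 1 or 2 the genes called lower were 0 of 16 sterol enzymes and 2 of 9 fatty acid enzymes, against 4.45% and 3.99% of all genes. Without either IL-1b array they were 4 and 6, against 17.7% of all genes without replicate 1 and 27.1% without replicate 2, so the sterol share of 4 in 16 was not above that of all genes in the second case.

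**Figure D3:**
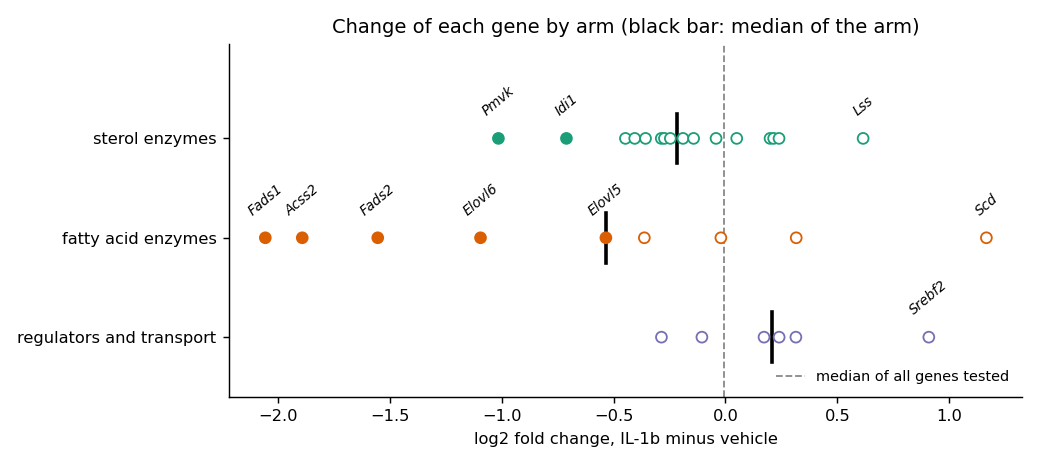
Log2 fold change (IL-1b minus vehicle) of each gene at its brightest probe set, by arm; filled circles are genes called in limma, black bars are the medians of the arms and the dashed line is the median of all genes tested. The fatty acid enzymes spread from -2.06 (Fads1) to 1.17 (Scd), the sterol enzymes from -1.01 (Pmvk) to 0.62 (Lss).

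Both IL-1b arrays lay below both vehicle arrays in 16 of the 31 genes and above both in 5. Over all genes tested, the shares were 31.8% below and 29.4% above. In the sterol arm 10 of 16 enzymes lay below and 3 above, in the fatty acid arm 6 of 9 lay below and 2 above, and in all 6 regulators the groups overlapped.

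Other genes of these pathways, taken from a list of 28, were mostly not called either. Of 25 measured, 20 were tested, and 1 was called lower and 1 higher, against 8.13% and 7.19% of all genes. Hacd3, a dehydratase of the elongation cycle in which Elovl5 and Elovl6 act, fell from 1728 ± 73.4 to 846 ± 154 (log2 fold change -1.04 ± 0.17 SE, adjusted p = 0.0083), and its other probe set was also called lower (-0.85). Acsl4, which couples coenzyme A to arachidonic acid and related fatty acids, rose from 776 ± 68.9 to 2022 ± 824 (log2 fold change 1.32 ± 0.27 SE, adjusted p = 0.021). The median log2 fold change of the 20 genes was -0.24, against -0.01 over all genes.

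The 16 genes with several tested probe sets allow probe sets of the same gene to be compared within these arrays. In 3 of them, Elovl5, Srebf1 and Stard4, the probe sets differed in the sign of the log2 fold change, and no gene had calls in both directions. No share over all genes stands beside these counts. Of the 48 probe sets tested, 10 were called lower and none higher. Of all 18625 probe sets, 7.11% were called lower and 13.4% in either direction. Fads1, Fads2, Acss2, Pmvk and Scd had 1 probe set each, so no second probe set stands beside their values.

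**Figure D4:**
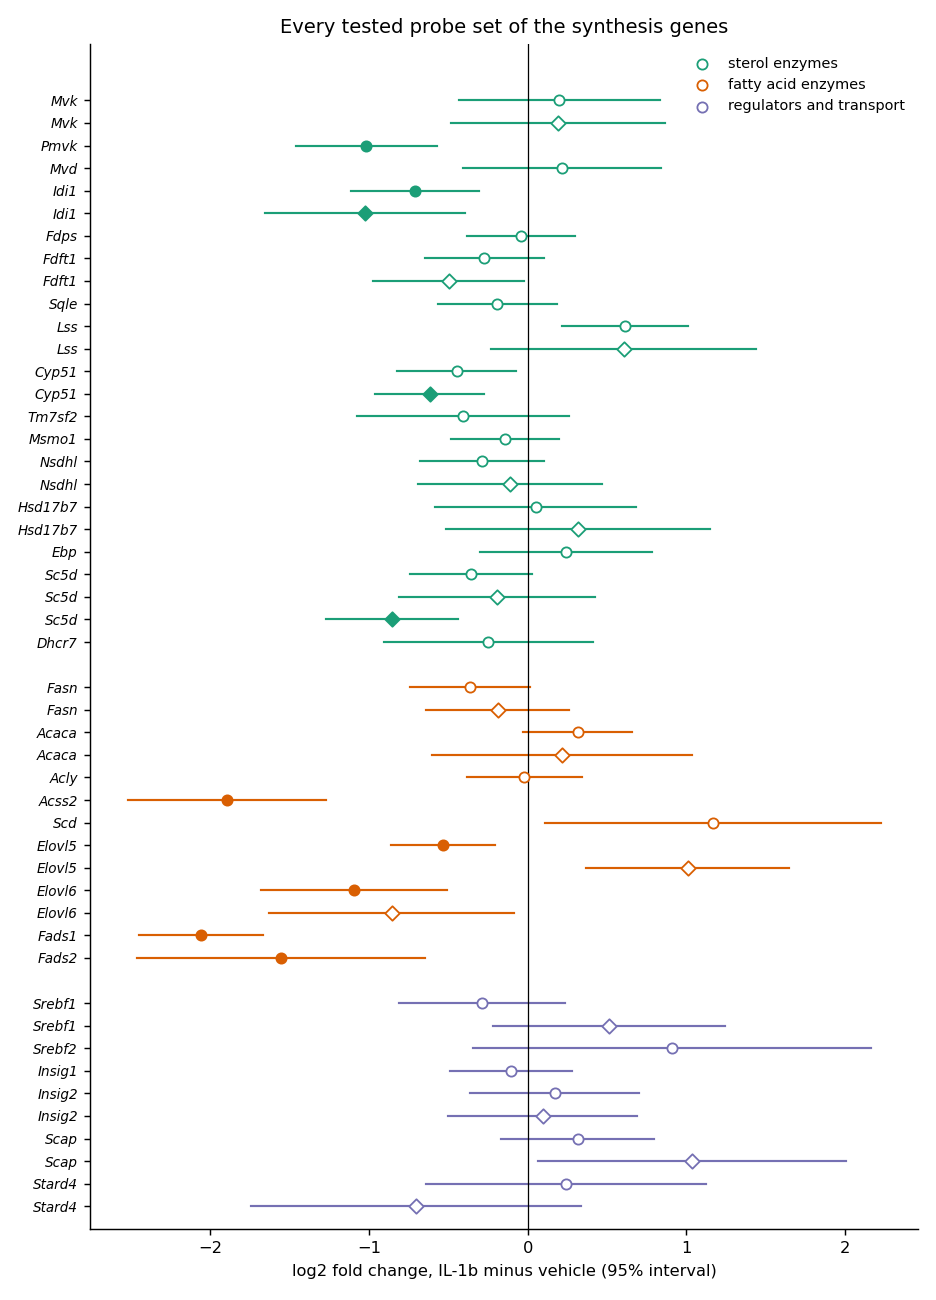
Log2 fold change (IL-1b minus vehicle) of all 48 tested probe sets with its 95% interval from limma, in pathway order; circles are the brightest probe set of a gene, diamonds the others, and filled symbols were called. The Elovl5 symbols lie on opposite sides of 0, at -0.53 and 1.01, whereas the Idi1 symbols are both filled and below 0.

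Promoter sequences are shown for genes that were called lower, Fads1, Fads2, Acss2 and Idi1, and for Fdps, the sterol enzyme with the log2 fold change nearest to 0, for contrast. They come from RefSeq (build GRCr8) and run from 250 bases before the annotated start of the gene to 50 bases after it. Of the 32 genes, 25 had such a window, 26 windows in all. Among the other genes called lower, Pmvk and Elovl6 had no window, and that of Elovl5 is not shown. SREBPs bind DNA weakly alone and act together with NF-Y and Sp1, so the capitals mark the NF-Y box (CCAAT or, on the other strand, ATTGG) and the Sp1 box (GGGCGG or CCGCCC). Fads1 lies at chr1:216252442-216252741 (plus strand), Fads2 at chr1:216171984-216172283 (minus), Acss2 at chr3:164464453-164464752 (plus), Idi1 at chr17:66547475-66547774 (minus) and Fdps at chr2:176804767-176805066 (minus).
Fads1: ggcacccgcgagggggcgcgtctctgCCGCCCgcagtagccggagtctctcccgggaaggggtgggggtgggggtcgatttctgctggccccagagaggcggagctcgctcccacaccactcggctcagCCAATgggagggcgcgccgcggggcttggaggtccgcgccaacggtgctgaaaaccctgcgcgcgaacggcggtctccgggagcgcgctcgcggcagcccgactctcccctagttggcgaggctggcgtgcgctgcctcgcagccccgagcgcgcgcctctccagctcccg
Fads2: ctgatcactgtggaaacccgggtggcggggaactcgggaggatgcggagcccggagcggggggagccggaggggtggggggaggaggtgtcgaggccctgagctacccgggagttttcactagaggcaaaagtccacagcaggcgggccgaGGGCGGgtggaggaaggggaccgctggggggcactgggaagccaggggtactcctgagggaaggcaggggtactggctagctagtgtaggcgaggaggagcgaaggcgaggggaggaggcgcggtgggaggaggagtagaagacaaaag
Acss2: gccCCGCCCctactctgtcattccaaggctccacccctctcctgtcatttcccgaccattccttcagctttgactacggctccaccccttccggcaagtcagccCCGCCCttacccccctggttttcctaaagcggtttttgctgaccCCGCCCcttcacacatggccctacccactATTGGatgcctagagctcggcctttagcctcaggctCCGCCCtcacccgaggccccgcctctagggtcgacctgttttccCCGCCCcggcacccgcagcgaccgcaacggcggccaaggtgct
Idi1: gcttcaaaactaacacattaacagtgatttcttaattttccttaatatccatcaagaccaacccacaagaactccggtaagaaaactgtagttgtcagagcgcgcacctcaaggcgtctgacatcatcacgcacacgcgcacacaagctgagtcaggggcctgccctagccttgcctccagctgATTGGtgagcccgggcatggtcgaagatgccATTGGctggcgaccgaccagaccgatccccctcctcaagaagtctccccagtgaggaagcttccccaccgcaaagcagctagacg
Fdps: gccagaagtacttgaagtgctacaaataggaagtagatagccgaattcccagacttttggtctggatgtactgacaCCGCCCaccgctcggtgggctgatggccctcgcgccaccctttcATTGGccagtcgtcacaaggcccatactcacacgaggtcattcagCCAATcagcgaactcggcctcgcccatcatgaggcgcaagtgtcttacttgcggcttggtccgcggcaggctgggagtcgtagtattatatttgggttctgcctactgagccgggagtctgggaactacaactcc

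In these windows Acss2 had 5 Sp1 boxes and 1 NF-Y box, and Fads1 had 1 of each. Fads2 had 1 Sp1 box and no NF-Y box, and Idi1 had 2 NF-Y boxes and no Sp1 box. Fdps, which was not called, had 2 NF-Y boxes and 1 Sp1 box. The NF-Y box was in 21 of the 26 windows of the listed genes and in 37.5% of all 33469 windows of the same length. The Sp1 box was also in 21 of 26, against 33.1% of all windows. By arm, 12 of 14 sterol genes and 4 of 6 fatty acid genes with a window held the NF-Y box, and the counts for the Sp1 box were the same. The E-box CACGTG, which SREBP-1 can also bind, was in 4 of 26 windows and in 6.42% of all windows. The sterol response element, searched as TCACNCCAC on both strands, was in 0 of 26 and in 1.12% of all windows. That says only that these letters are not in these windows, and a match is a description of the sequence, not a bound site.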

How the data were processed

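The authors deposited 1 linear intensity per probe set and array, for which the submitters' processing notes name MAS5, covering 31099 probe sets on 4 arrays. From these, log2(intensity + 5.49) was taken, the offset being the 10th percentile of all values. Control probe sets (57) and those with a mean below the 40th percentile (log2 of 5.37) were left out, which kept 18625. IL-1b was compared with vehicle with limma 3.58.1 in R 4.3.3 (lmFit, eBayes with an intensity trend, Benjamini-Hochberg adjustment), after the script was tested on simulated data. The background of an array was the 95th percentile of its 27 bacterial control probe sets. Arrays give no counts, so their number limits the precision.

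Genes were named through the platform annotation, and the 31 symbols matched current gene identifiers. All listed genes were named, with values per array for those called or with probe sets that disagree, and, of the related genes, those called. The genes and lists were chosen with earlier results of these data known. Promoter windows came from RefSeq (GRCr8). Alternatives changed the offset, normalization, filter, variance prior, probe set rule, replicate block, threshold and arrays used.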

Additional observations from a re-analysis of the deposited data

How the results depend on the processing

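The 7 genes called lower became 4 with median centring, 1 with no intensity trend, 2 at an adjusted p under 0.01, and 2 to 11 with 1 array left out. The 0 called higher became 1 with quantile normalization (Lss), 1 with the replicate block (Srebf2, adjusted p = 0.039) and 0 to 3 with 1 array left out. The 2 sterol enzymes called lower became 0 with median centring, with no intensity trend and at an adjusted p under 0.01, and 0 to 4 with 1 array left out. The 5 fatty acid enzymes became 1 with no intensity trend, 2 at an adjusted p under 0.01, and 2 to 6 with 1 array left out. The 2503 probe sets called became 1634 with median centring, 963 with no intensity trend, 1222 at an adjusted p under 0.01, and 1357 to 8666 with 1 array left out. The difference of the arm medians, 0.32, became 0.35 with quantile normalization, 0.081 with the mean of probe sets, and 0.33 to 0.36 with 1 array left out. Elovl5 turned to 0.24 with the mean of probe sets. The cause of these changes was not tested.

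Of 431 pairs of a gene and a setting, 382 kept their direction and side of the threshold, 21 lost the call and 14 gained one. In 1 pair (Elovl5) the direction reversed and the call was also lost, and 13 changed sign without a call. The pairs include those of the 24 genes not called in the main fit. The 382 therefore do not measure how stable the 7 calls were. When 1 array was left out, the remaining array of that group was taken to vary as the other group did. Over the probe sets tested, the deviations of vehicle replicate 1 and IL-1b replicate 1 from their group means had a correlation of 0.09. With 2 arrays per group replicate 2 only mirrors replicate 1, so this value cannot decide whether the numbers mark pairs. The labels give a shared replicate number and no more, and the main fit used no pairs. With the replicate block 6 genes were called lower, Elovl5 (adjusted p = 0.059) being lost. Over all 10000 genes, 1055 were lower with the block, against 813 in the main fit. Fads2 was too dim to be tested with the filter at the 60th percentile.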
